A study of Arabidopsis thaliana with 6 samples.

Results

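ECS1 (AT1G31580, probe set 256497_at) is a gene of Arabidopsis chromosome 1 that encodes a small protein associated with the plant cell wall. It is 1 gene of the 13286 that could be read through a probe set of their own, and 1 probe set of the 22746 tested. The gene was chosen from these data because its signal was high on both arrays of one genotype, TaVAPOE, and low on the arrays of the other genotypes. Its levels and its differences between TaVAPOE and the other genotypes are therefore given as a description, without a test.

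The plant cell wall holds polysaccharides and structural proteins such as extensins and arabinogalactan proteins, and it is the first barrier that a pathogen meets. ECS1 was described in work on the response of Arabidopsis to the bacterium Xanthomonas campestris, as a gene that may be linked to a locus influencing resistance. Genes of the pathogen response often differ in sequence and in expression between natural accessions of Arabidopsis.

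RNA came from whole seedlings aged 5 days, grown on plates with 16 hours of light and 8 hours of dark and not treated. The groups were the wild type, an atvap mutant (so named in the labels), and TaVAPOE, which the labels describe as wild type with overexpression of TaVAP, with 2 biological replicate arrays in each. VAP proteins sit in the membrane of the endoplasmic reticulum and join it to other membranes. The labels give neither the accession of any line, nor the locus of the mutation, nor the promoter of the transgene, nor how many transformed lines the TaVAPOE seedlings came from, and they do not say whether seedlings were pooled.

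The deposited scores behave as logarithms, but no source gives their base, and array medians lay between 2.74 and 2.88 log units. Pearson's r across probe sets was 0.94 to 0.98 among 4 of the 6 arrays, namely replicate 2 of the wild type, replicate 2 of the mutant and both TaVAPOE arrays. Replicate 1 of the wild type reached 0.52 to 0.53 with these 4, and replicate 1 of the mutant reached at most 0.19 with any array. Probe sets are not independent replicates, so these values only describe the arrays. The markers of green tissue that were measured (RCA, LHCB4.1 and PSAE-1, 3 of 5 on the list) read 8.92 to 9.55 on the 5 arrays other than mutant replicate 1, where they read 2.62 to 4.15. Of the root markers only EXPA7 was measured, at 1.69 to 3.79, and no seed-storage or flower marker on the lists was analysed here. Results for ECS1 that rest on the 2 discordant arrays are given with and without them.

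ECS1 was bright on both TaVAPOE arrays and near the middle of the distribution, or moderately above it, on the other 4. In the wild type it read 3.45 log units on replicate 1 and 2.25 on replicate 2. In the mutant it read 3.66 on replicate 1 and 2.77 on replicate 2. In TaVAPOE it read 8.42 and 8.51. No wild-type or mutant array came within 4.76 log units of the lower TaVAPOE array, so the TaVAPOE group did not overlap with either of the others, while the wild-type and mutant values overlapped with each other.

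**Figure D1:**
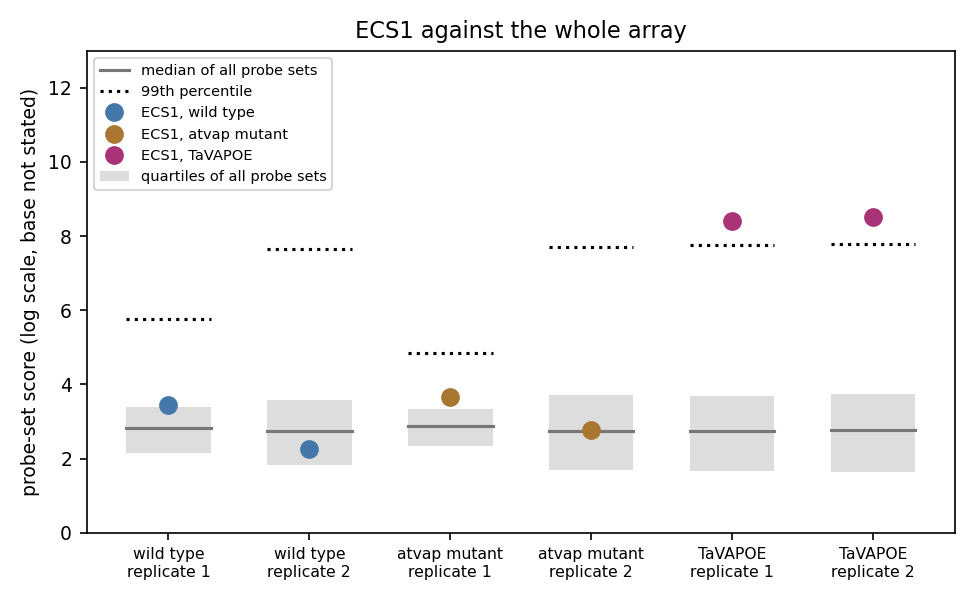
Score of the ECS1 probe set (points, log scale of unstated base) on each of the 6 arrays, with the quartiles (grey box), median (grey line) and 99th percentile (dotted line) of all 22746 probe sets on that array. ECS1 lies above the 99th percentile on both TaVAPOE arrays, at 8.42 and 8.51, and between 2.25 and 3.66 on the other arrays.

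The place of ECS1 within each array differed in the same way. On the TaVAPOE arrays 99.6% of probe sets read below it on each replicate, and only 86 probe sets on replicate 1 and 87 on replicate 2 were brighter. On wild-type replicate 2 it stood above 35.0% of probe sets, 0.49 log units below the array median (a difference of -0.49), and on mutant replicate 2 above 50.9%, at the median (a difference of 0.03). On the discordant arrays it stood higher, above 76.7% of probe sets on wild-type replicate 1 and above 87.1% on mutant replicate 1. Those 2 arrays had a narrower spread, with a 99th percentile of 5.78 and 4.84 against 7.65 to 7.78 on the other 4, and ECS1 lay 0.61 and 0.78 log units above their medians. The brightness of a probe set also depends on its probes, so the rank places the signal within an array and does not measure transcript number. In whole seedlings, fewer cells that express a gene and less RNA per cell cannot be told apart.

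The mean was 2.85 ± 0.84 log units for the wild type, 3.22 ± 0.63 for the mutant and 8.46 ± 0.062 for TaVAPOE (SD, n = 2 arrays each). The TaVAPOE replicates differed by 0.0879 log units, less than the 0.191 of the median probe set in that pair. The wild-type replicates differed by 1.19 log units and the mutant replicates by 0.885, close to the medians of 0.962 and 0.999 over all probe sets in those discordant pairs.

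TaVAPOE lay above the wild type by 5.61 ± 0.61 log units (limma's moderated standard error, 3 residual degrees of freedom). This is 49.0-fold if the log is base 2 and 274-fold if it is the natural log. Against the mutant the difference was 5.25 ± 0.61 log units, 37.9-fold on base 2. The 2 comparisons share the TaVAPOE arrays. Among all 22746 probe sets ECS1 had the second largest rise in each, beside a median difference over all probe sets of 0.03 against the wild type and -0.05 against the mutant. With the 4 concordant arrays alone, where the spread is estimated from the TaVAPOE replicates with 1 residual degree of freedom, the differences were 6.21 ± 0.19 and 5.69 ± 0.19 log units, at rank 2 and rank 4 of all probe sets. Both discordant arrays thus read ECS1 higher than the other replicate of their genotype did, and made the differences smaller.

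The comparison of the mutant with the wild type was not itself used to choose the gene, and it was tested. The choice did require a low signal in both genotypes, which keeps their difference small. The test is therefore not independent of the choice. The difference was 0.37 ± 0.61 log units and did not pass (limma adjusted p = 0.9999, unadjusted p = 0.571). In this comparison 0 of 22746 probe sets passed (0%), and 218 had an unadjusted p under 0.05. With the 4 concordant arrays, which hold 1 array of each of these genotypes, the difference was 0.52 log units. Ordered by mean, ECS1 was highest in TaVAPOE, then in the mutant and then in the wild type. The order of the mutant and the wild type turned without wild-type replicate 2 (-0.23) or without mutant replicate 1 (-0.075), and they did not differ beyond their spread.

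No measured gene within 100 kb of ECS1 showed a gap of 1 log unit between the TaVAPOE arrays and all others, which 0.4% of all probe sets had on the higher side and 0.0879% on the lower. None passed the test either, and 0% of all probe sets did, so these counts do not set the neighbours apart from other genes. Neighbours were taken from the gene order of the RefSeq table of the TAIR10.1 assembly. Within 100 kb on either side lay 55 annotated genes, 47 of them protein-coding, and 27 had a probe set with 1 gene. The next gene on the higher-numbered side, AT1G31600, carries the symbol TRM9 and was not analysed here.

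On the lower-numbered side, AT1G31550 is separated from ECS1 by 4 annotated genes. It read 3.67 and 5.11 on the wild-type arrays, 2.66 and 5.34 on the mutant arrays, and 5.41 and 5.61 on the TaVAPOE arrays. On the 4 concordant arrays these values span 0.50 log units, against 6.25 for ECS1. Beyond it, AT1G31540 read 1.94 and 1.64 on the wild-type arrays, 2.26 and 2.26 on the mutant arrays, and 1.63 and 1.65 on the TaVAPOE arrays. The TaVAPOE arrays of AT1G31540 therefore lay at the level of wild-type replicate 2. The TaVAPOE minus wild-type difference was -0.51 ± 0.61 log units for AT1G31530, -0.40 ± 0.56 for AT1G31520 and -0.84 ± 0.84 for AT1G31510.

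On the higher-numbered side, AT1G31620 read 4.12 and 1.08 on the wild-type arrays, 2.48 and 1.41 on the mutant arrays, and 1.77 and 1.30 on the TaVAPOE arrays. AGL86 and AGL92, of the MADS-box family of transcription factors, came next. AGL86 read 2.70 and 1.06 on the wild-type arrays, 2.77 and 0.63 on the mutant arrays, and 1.14 and 1.71 on the TaVAPOE arrays. For AGL92 the TaVAPOE minus wild-type difference was -0.06 ± 0.72 log units. For AT1G31620 and AGL86 the highest values came from the discordant arrays and those of the concordant arrays were all lower. AT1G31670 differed by -0.41 ± 0.82 log units and AT1G31690 by 1.15 ± 0.82, and the latter read 5.28 to 5.56 across the concordant arrays but 3.02 on wild-type replicate 1.

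Across the 27 measured neighbours, differences between TaVAPOE and the wild type ran from -1.23 to 1.15 log units with a median of -0.45. Against the mutant they ran from -1.22 to 1.51 with a median of -0.28. With the 4 concordant arrays the medians were 0.04 and 0.17, and the widest differences were -1.15 and 0.90. In limma 0 of the 27 passed against the wild type, where 0 of all probe sets passed (0%), and 0 passed against the mutant (0% of all). None of the 27 had an unadjusted p under 0.05 in either comparison, against 2.14% of all probe sets for the wild type and 1.31% for the mutant. Between mutant and wild type 0 of the 27 passed and 0 had an unadjusted p under 0.05, against 0.958% of all. No other tool was run. With the 4 concordant arrays 0 of the 27 passed as well, beside 0.0396% of all probe sets against the wild type, 0.0659% against the mutant and 0% between mutant and wild type.

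Both TaVAPOE arrays lay above the other 4 arrays for 5 of the 27 neighbours (18.5%), beside 13.6% of all probe sets. They lay below the other 4 for 3 (11.1%), beside 9.1% of all. The widest such gap was 0.72 log units, for AT1G31710, which read 3.12 and 3.19 on the wild-type arrays, 2.01 and 3.29 on the mutant arrays, and 4.03 and 4.005 on the TaVAPOE arrays. None of the 27 reached a gap of 1 log unit. Over the 4 concordant arrays 24 of the 27 (88.9%) varied by less than 1 log unit, as did 83.7% of all probe sets. Most of the 27 read below the array median on these 4 arrays, which leaves little room for a fall to show.

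**Figure D2:**
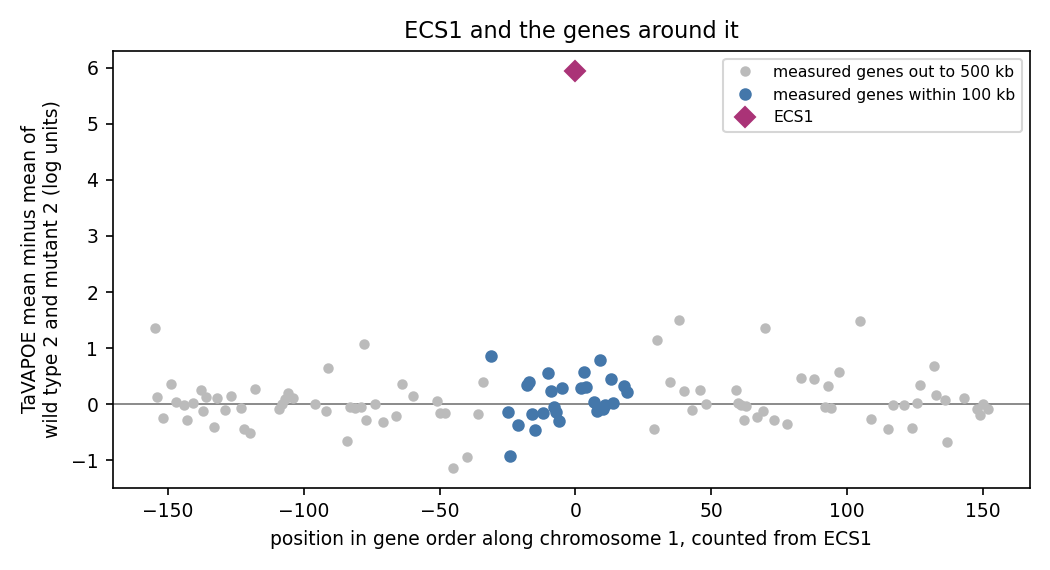
Difference between the mean of the TaVAPOE arrays and the mean of wild-type replicate 2 and mutant replicate 2 (log units) for measured genes around ECS1, placed by their order along chromosome 1. ECS1 stands alone near 6, while the 27 genes within 100 kb (blue) lie between -0.92 and 0.85.

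Of 310 annotated genes within 500 kb, 113 were measured, and 0 passed in limma in any of the 3 comparisons, as 0% of all probe sets did. At an unadjusted p under 0.05 were 5 (4.42%) against the wild type, beside 2.14% of all probe sets, and 3 (2.65%) against the mutant, beside 1.31%. In 1 of the 113, AT1G31910, both TaVAPOE arrays lay more than 1 log unit above the other 4, as they did for 0.4% of all probe sets. AT1G31910 read 3.23 and 4.197 on the wild-type arrays, 3.004 and 4.05 on the mutant arrays, and 5.76 and 5.496 on the TaVAPOE arrays, a gap of 1.30 log units. It is the gene at place 38 counted from ECS1 and is named here after its values were seen.

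A pattern like that of ECS1, with both TaVAPOE arrays at least 2 log units above all other arrays, was found in 22 probe sets, ECS1 included (0.0967% of all). ECS1 had the second widest gap, 4.76 log units, behind the 5.03 of probe set 255257_at, which is unnamed here. The opposite pattern, TaVAPOE at least 2 log units below all others, was found in 0 probe sets, and the widest such gap was 1.95 log units. With the 4 concordant arrays, 36 probe sets were high in TaVAPOE (0.158%) and 16 were low (0.0703%). Fewer arrays by themselves let more probe sets reach a gap. By the same gap the wild type stood apart from the other genotypes in 0 probe sets in either direction, and so did the mutant, but each of these groups holds a discordant array. Among the 4 concordant arrays, wild-type replicate 2 stood alone in 1 probe set, mutant replicate 2 in 5, and neither TaVAPOE array in any. Each TaVAPOE array was set against its own replicate here, while the wild-type and mutant arrays had none among the 4. These counts are therefore not a like-for-like comparison.

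**Figure D3:**
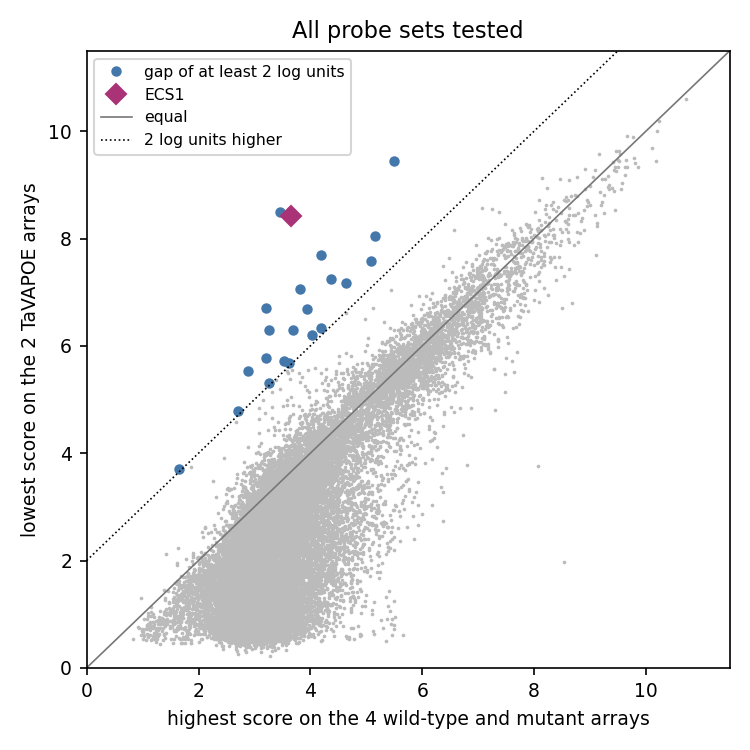
Lowest score on the TaVAPOE arrays against the highest score on the 4 wild-type and mutant arrays, both in log units, for all 22746 probe sets (grey). The 22 probe sets above the dotted line, blue with ECS1 as a diamond, have a gap of at least 2 log units, and ECS1 has a gap of 4.76.

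Of the 22 probe sets, 5 have a single gene in the annotation used, 13 are unnamed here and 4 carry several genes. The 5 genes do not lie together. ECS1 and AT1G66090 are on chromosome 1, AT2G25510 and ARPN on chromosome 2, and AT3G28500 on chromosome 3. ARPN encodes plantacyanin, a small blue copper protein found outside the cell. It read 2.71 and 2.04 on the wild-type arrays, 1.96 and 1.23 on the mutant arrays, and 4.79 and 4.96 on the TaVAPOE arrays, so both TaVAPOE arrays lay 2.08 log units or more above the others. AT3G28500 read 1.63 and 4.02, 3.11 and 3.19, and 6.34 and 6.21 in the same order, a gap of 2.19.

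The profile over 6 arrays was compared with that of every other probe set after each was centred on its own mean, by the root mean square difference. The median over all 22745 other probe sets was 2.67 log units, and 5 lay within 1 log unit of ECS1. The nearest was 255257_at, at 0.311 log units. It read 3.32 and 3.01 on the wild-type arrays, 3.46 and 2.81 on the mutant arrays, and 8.49 and 8.56 on the TaVAPOE arrays.

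Among probe sets with 1 gene, the 8 nearest were AT2G25510, AT1G66090, ARPN, ZW9, AT1G66100, AT3G48650, AT3G44630 and AT3G28500. The distance of AT2G25510 was 0.536 log units. On mutant replicate 1 AT2G25510 read 5.501, against 3.02 to 3.61 on the other wild-type and mutant arrays. AT1G66090 had a distance of 0.841 log units and read 2.197 to 3.26 outside TaVAPOE and 6.30 and 6.43 in TaVAPOE. The other 6 had distances of 1.30 to 1.47. Above the wild type, TaVAPOE read ZW9 by 2.97 ± 0.55 log units, AT1G66100 by 2.43 ± 0.71 and AT3G48650, a transcribed pseudogene, by 2.98 ± 0.47. These genes were selected for their likeness to ECS1, so their differences are a description as well.

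**Figure D4:**
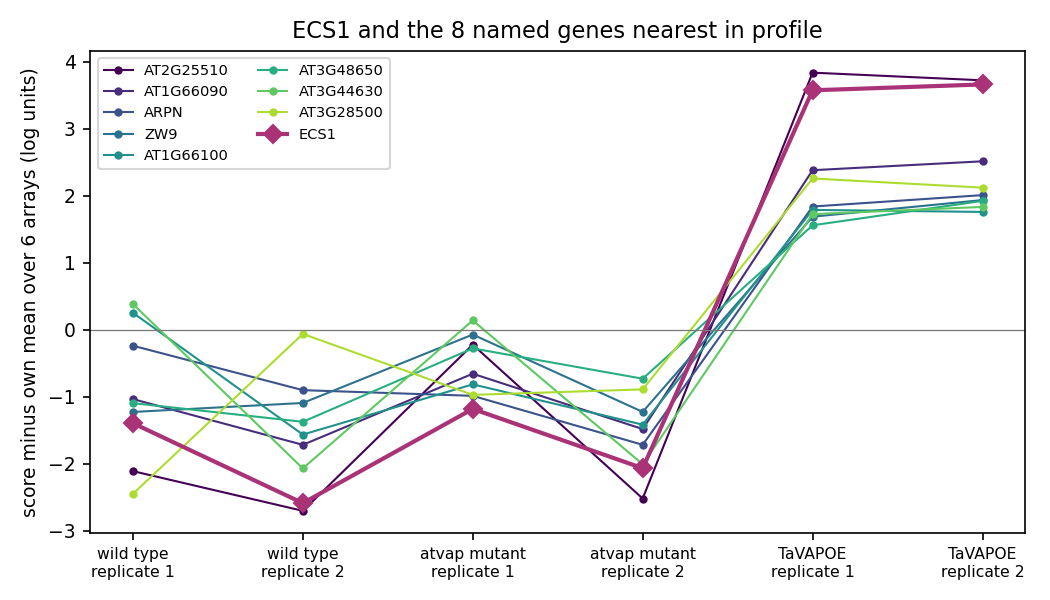
Scores of ECS1 and of the 8 named genes nearest in profile, each minus its own mean over the 6 arrays (log units), by array. All 9 genes are highest on both TaVAPOE arrays, and ECS1 and AT2G25510 have the widest steps.

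The surroundings of these genes were read in the same way as those of ECS1, over 10 annotated genes on each side and the 4 concordant arrays, a look added after the data had been seen. Around ECS1, 13 of 20 flanking genes were measured and 0 stood apart from wild type and mutant by 1 log unit or more, as 0.765% of all probe sets did on the higher side and 0.73% on the lower. The same count was 0 of 11 around AT2G25510, 0 of 10 around AT3G28500, 0 of 7 around AT3G44630, 0 of 3 around ARPN and 0 of 1 around ZW9. AT1G66090 and AT1G66100, with 1 annotated gene between them, were both higher in TaVAPOE and were the only such genes in each other's surroundings, of 6 and 7 measured. Both had already been picked for their likeness to ECS1, so this is 1 pair of genes known to be higher. Around AT3G48650, higher in TaVAPOE, 5 of 20 flanking genes were measured, and 2 of these went the other way by 1 log unit or more. The adjacent gene AT3G48640 was 1 of them. AT3G48640 read 8.16 on wild-type replicate 2 and 8.53 on mutant replicate 2, against 1.97 and 2.51 in TaVAPOE, but its 6.51 on wild-type replicate 1 and 1.98 on mutant replicate 1 overlap with both levels. The sucrose transporter gene SWEET11, with 9 annotated genes between it and AT3G48650, was also lower, at 6.31 and 6.38 against 4.51 and 4.63, while the discordant arrays read SWEET11 at 3.85 and 3.08, below both TaVAPOE arrays.

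Whether the step in ECS1 belongs to the transgene or to the background of the line cannot be told apart in this design, since all TaVAPOE arrays carry both and the labels name no accession. The values that bear on the shape of the pattern are that ECS1 was near the array median on the concordant wild-type and mutant arrays, above the 99th percentile in TaVAPOE, nearly equal between the TaVAPOE replicates, and unaccompanied by the measured genes within 100 kb. Most of those measured genes read below the array median on the concordant arrays, as AT1G31430 did at 0.71 to 1.36 log units. A fall could hardly be seen in them. Farther out, within 500 kb, AT1G31910 had a gap of 1.30 log units on the higher side, and 0 genes had a gap of 1 log unit on the lower side. Of the genes within 100 kb, 28 were not analysed here.

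Other genes of cell wall structure and of pathogen defence were read from lists chosen with earlier results of these data known. Of 43 genes of structural cell wall proteins only 3 were measured, and 0 passed in either direction in limma in any comparison, with 0 at an unadjusted p under 0.05. Since 0% of all probe sets passed, and 2.14%, 1.31% and 0.958% had such a p against the wild type, against the mutant and between mutant and wild type, the count says nothing particular about these 3 genes. HRGP1, a hydroxyproline-rich glycoprotein of the extensin type, read 2.85 and 3.60 on the wild-type arrays, 3.27 and 3.96 on the mutant arrays, and 3.65 and 2.67 on the TaVAPOE arrays, so the 3 groups overlapped. By the suffix of its identifier, the HRGP1 probe set may hybridise with other transcripts too. For AT3G24480 the TaVAPOE minus wild-type difference was -0.29 ± 0.46 log units, and for AT4G18670 it was 0.58 ± 0.57. The median of the 3 was -0.06, beside 0.03 over all probe sets.

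Of 43 defence genes 8 were measured, and 0 passed in either direction in any comparison, with 1 at an unadjusted p under 0.05 against the wild type in TaVAPOE, 1 in the mutant, and 0 between TaVAPOE and the mutant, beside 2.14%, 0.958% and 1.31% of all probe sets, of which 0% passed. The median difference between TaVAPOE and the wild type was 0.12 log units, beside 0.03 over all probe sets. WRKY53, a transcription factor of senescence and defence, read 4.34 and 6.23 on the wild-type arrays, 2.67 and 6.03 on the mutant arrays, and 6.62 and 6.63 on the TaVAPOE arrays. Its TaVAPOE arrays were the highest, but the 2 concordant arrays of the other genotypes came close to them (difference from the wild type 1.35 ± 1.21, limma adjusted p = 0.870). The thionin gene THI2.2 read 1.89 and 2.52, 3.24 and 2.95, and 3.01 and 3.05 in the same order, with mutant and TaVAPOE alike above the wild type (0.83 ± 0.48 for TaVAPOE, limma adjusted p = 0.870). The defensin genes PDF1.2 and PDF1.2b, markers of the jasmonate response, differed from the wild type by -1.39 ± 0.45 and -0.96 ± 0.92 log units (limma adjusted p = 0.870 for both). The mutant was about as low, with TaVAPOE minus mutant differences of 0.02 for PDF1.2 and -0.06 for PDF1.2b, so this is not particular to TaVAPOE. PDF1.2b read 2.15 and 4.90 on the wild-type arrays, so its difference rested on replicate 2. By its suffix, the PDF1.2b probe set may also hybridise with other transcripts. BIK1 and EFR, a kinase and a receptor of bacterial recognition, differed by 0.17 ± 0.58 and 0.06 ± 0.46, SAG101, a partner of the immune regulator EDS1, by 0.17 ± 0.54, and the thionin THI2.1 by -0.44 ± 0.45. None of these genes stood apart in TaVAPOE by 1 log unit, in either direction, from all other arrays, as 0.4% of all probe sets did on the higher side and 0.0879% on the lower. The list does not hold every defence gene. The genes nearest to ECS1 in profile are not on it, so this count does not cover them, whatever their role in defence. The count therefore does not show that defence genes in general lack the pattern of ECS1.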

How the data were processed

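Biotin-labelled RNA of 6 samples was hybridised to Affymetrix arrays, per the labels. The authors deposited 1 score per probe set, which behaves as a log scale; how it was summarised and normalized, and its base, is not given in the sources used here. Agilent Feature Extraction is named in the submitters' processing notes, without a version, although the arrays are Affymetrix. Scores were used as deposited, without the 64 control probe sets. Array brightness has no counting depth, and the number of arrays limits precision.

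Gene names are those of the RefSeq TAIR10.1 table, reached by the Entrez identifiers of the platform annotation. Of 22746 probe sets, 13513 had 1 gene, 503 several and 8730 none here; 13436 were matched. A gene with several probe sets was read on the brightest. No sequence is printed.

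Differences came from 1 limma fit (3.58.1, R 4.3.3) over 6 arrays, with Benjamini-Hochberg adjustment over all probe sets at 0.05. The fit was also run on simulated data with equal noise on all arrays, which does not imitate the discordant arrays here. The design text and labels call replicates biological.

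ECS1, the lists and the 4-array alternative were chosen with earlier results of these data known. Named genes were ECS1, the 5 nearest measured genes on each side, others within 100 kb with a gap of 1 log unit, the 8 nearest profiles, genes with a gap of 2 log units, and up to 4 members per list by difference; AT1G31710, AT1G31910, AT3G48640, SWEET11, the unnamed 255257_at and the remaining defence genes were added after their values were seen.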

Additional observations from a re-analysis of the deposited data

How the results depend on the processing

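The difference of ECS1 between TaVAPOE and the wild type kept its direction under all 14 alternatives, and so did that from the mutant. Since the gene was chosen for this gap, the direction could hardly turn, and the count is only a description. Alternatives that alter only the spread, or that leave out an array of the genotype not compared, cannot change the difference. Leaving out each array in turn gave 5.02 to 6.21 log units against the wild type and 4.80 to 5.69 against the mutant. Quantile normalization gave 4.79 and 4.09, and adding 16 on the linear scale, which reads the log as base 2, gave 3.96 and 3.85. Between mutant and wild type the difference ran from -0.23 to 0.96 with 1 array left out and turned below 0 without wild-type replicate 2 (-0.23) and without mutant replicate 1 (-0.075); it passed in none. The count of neighbours that passed in limma was 0 in the 3 comparisons under every alternative that kept all 6 arrays. In the main fit 0% of all probe sets passed as well, so this unchanged count does not set the neighbours apart from other genes.

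The count of probe sets high only in TaVAPOE fell from 22 to 9 under quantile normalization and to 9 with 16 added. It was 36 over 4 arrays, 91 at a gap of 1 log unit, 7 at 3 log units, and 23 to 30 with 1 array left out. The count of low probe sets, 0 over 6 arrays, was 16 over 4 arrays, 20 at a gap of 1 log unit, and 0 to 5 with 1 array left out, with the 5 found without mutant replicate 1. The use of fewer arrays by itself widens such gaps; the cause of the other changes was not tested.

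Same-numbered arrays deviated together at r = 0.58 for wild type and mutant, whose replicate 1 arrays are the discordant ones. The r was 0.014 for wild type and TaVAPOE and 0.088 for mutant and TaVAPOE. The numbers thus do not pair the TaVAPOE arrays with the others. Whether the wild-type and mutant arrays of the same number share a cause was not tested. With the replicate number as a block the ECS1 differences were again 5.61, 5.25 and 0.37. Each genotype holds 1 array of each number, so the block cannot change a difference, only its standard error. The block changed no call.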
